A study of Mus musculus with 2 samples.

Results

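The postsynaptic density is the protein mat under the membrane of an excitatory synapse. The 34 genes described here encode its scaffolds and signalling proteins, and were taken as a list by symbol from the 55536 annotated genes of the tables. All 34 symbols were found, 20 of them scaffolds and adaptors, 6 kinases or calmodulin-linked genes, 5 regulators of small GTPases and 3 genes of actin, adhesion and Arc. The RNA was total RNA from the left cerebral cortex of 2 male B6CASTF1/J mice (F1 hybrids of C57BL/6 and CAST) at 4 days after birth, with 1 library a mouse, numbered replicate 2 and replicate 1. Both mice share strain, sex, age and hemisphere, neither mouse carries a named mutation or treatment, each library was made from 300 ng, and no second condition was sampled.

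In the mature density, membrane-associated guanylate kinases (the Dlg family) hold glutamate receptors through their PDZ domains. Dlgap proteins bind the guanylate kinase domain of the Dlg proteins and, at their other end, the Shank proteins, which in turn bind Homer proteins. Calcium entry activates calcium/calmodulin-dependent kinase II (CaM kinase II), which is very abundant in the density, and regulators of small GTPases control the actin of the spine. In the mouse cortex most excitatory synapses form after birth, and subunits and isoforms of several of these families are known to change over the first weeks.

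All 34 genes were detected, which here means at least 1 TPM in both libraries, where 59.4% of annotated protein-coding genes were. TPM is a transcript level corrected for length and library size, so it can be compared between genes. The median member stood at 62.3 TPM in replicate 2 and 66.4 TPM in replicate 1, against a median of 17.6 TPM over detected protein-coding genes. The members were thus mostly genes of middle to high level: 30 of the 34 lay above that median, and 11 reached 100 TPM or more, as did 7.65% of detected protein-coding genes. Another 15 lay between 30 and 100 TPM, and 8 lay under 30 TPM. Together the members took 0.580% of protein-coding TPM in replicate 2 and 0.574% in replicate 1. In order of mean level, the ranges of the 2 libraries were separate in 16 of 33 pairs of neighbours and overlapped in the other 17. In whole tissue, fewer cells of a type and less RNA per cell cannot be told apart.

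**Figure D1:**
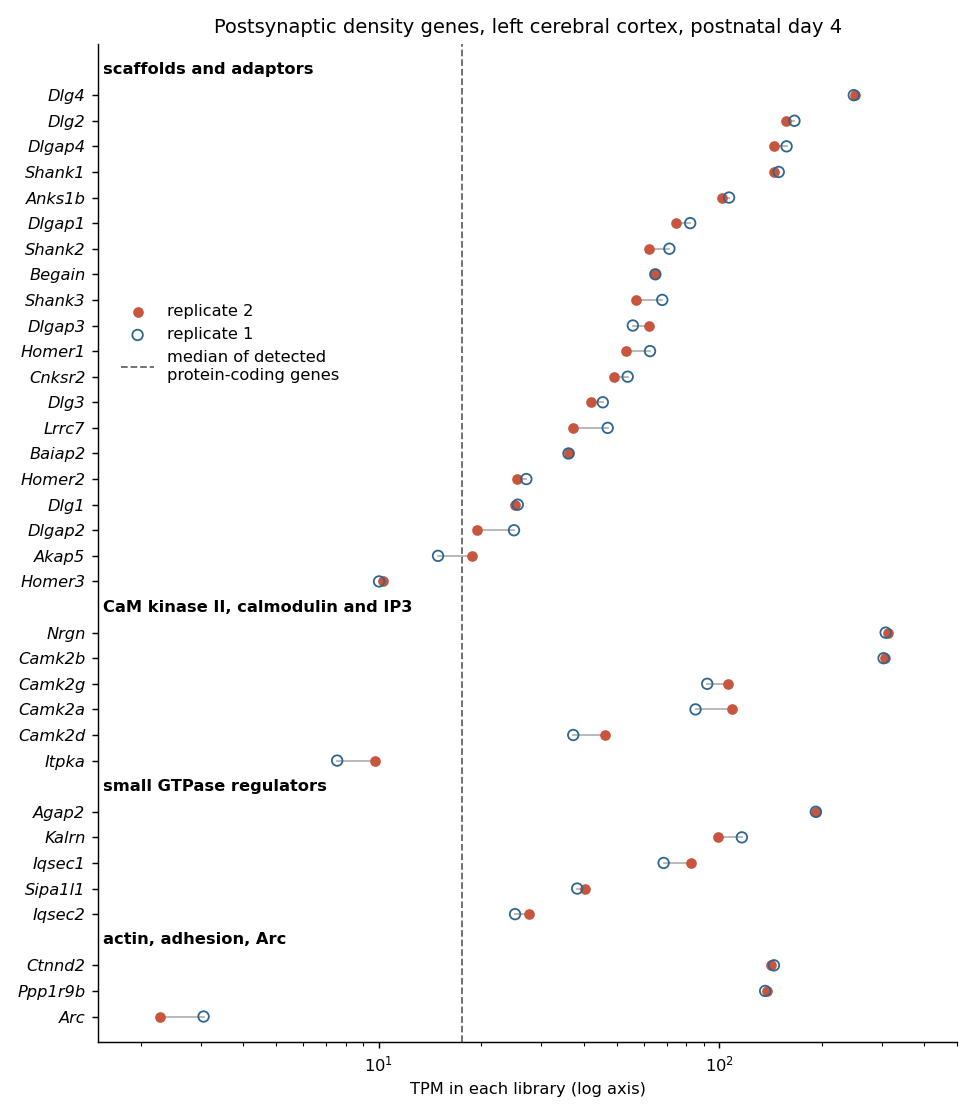
TPM of each of the 34 genes (x, log axis) in replicate 2 (filled) and replicate 1 (open), by role and by mean level, with the median of detected protein-coding genes (17.6 TPM) as a dashed line. Nrgn and Camk2b lead at just over 300 TPM in each library, and Akap5, Homer3, Itpka and Arc are the members with a mean below the line.

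Depth was 29511737 expected counts for replicate 2 and 26897687 for replicate 1, and single members had between 130 counts (Arc, replicate 2) and 21042 counts (Camk2b, replicate 2). A two-sided exact binomial test on the counts of the 2 libraries, adjusted by Benjamini-Hochberg over all 20385 tested genes, called 22 of the 34 members, 15 higher and 7 lower in replicate 2, where 26.7% of all tested genes were called (13.9% higher and 12.7% lower). The test sees counting error only, compares these 2 libraries and not conditions, and calls more genes the more reads they have. Of protein-coding genes with 1000 counts or more over both libraries 44.2% were called, against 21 of the 31 members that reach that count. The differences were small: 28 members lay within 1.2-fold between the libraries (82.4%, against 79.7% of detected protein-coding genes). Their median log2 ratio of replicate 2 over replicate 1 was 0.05, beside 0.02 over detected protein-coding genes.

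All 6 kinase and calmodulin-linked genes were higher in replicate 2 and passed the test, with log2 ratios of 0.08 to 0.44. The lowest of these, Nrgn, did not pass with scaling by total counts (adjusted p = 0.073, exact binomial test). Of the 20 scaffolds 9 passed, 3 higher and 6 lower in replicate 2, with a median log2 ratio of −0.03. Of the 5 GTPase regulators 4 were higher and Kalrn was lower in replicate 2, and of the last 3 genes Ppp1r9b and Ctnnd2 were higher. Beside these counts, 26.7% of all tested genes were called. Of protein-coding genes with 1000 counts or more over both libraries, 44.2% were. A difference between the roles was not tested.

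**Figure D2:**
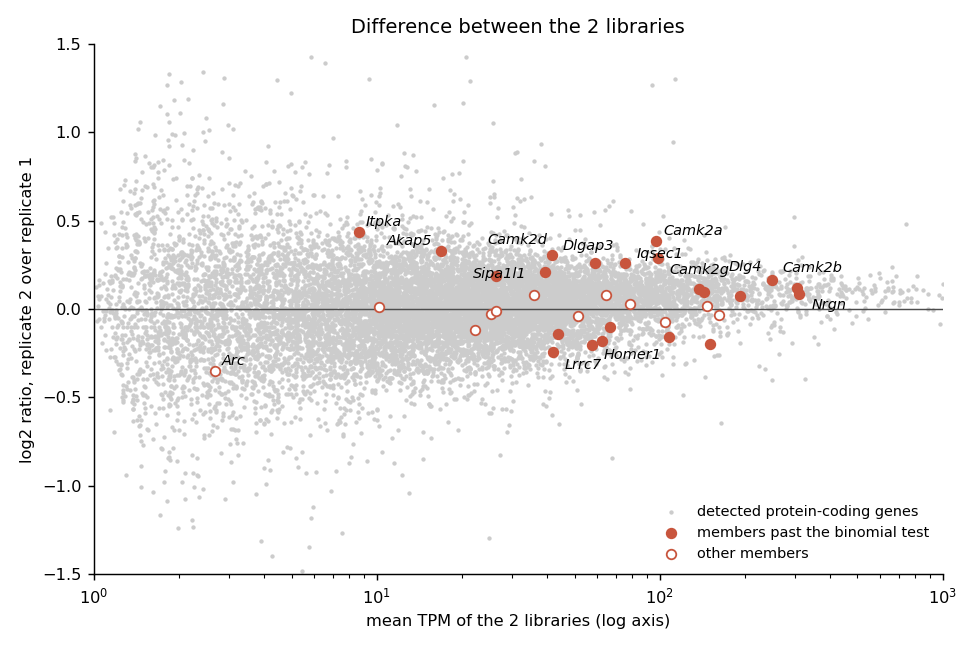
Log2 ratio of replicate 2 over replicate 1 from scaled counts (y) against the mean TPM of the 2 libraries (x, log axis) for detected protein-coding genes (grey) and for the 34 members, filled where the binomial test passed. 38 of the 13084 detected protein-coding genes lie outside the axes. Itpka, Camk2a, Akap5, Camk2d, Camk2g and Arc are the 6 members more than 1.2-fold from equal.

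Markers of other regions and cell types also differed between the libraries. Summed over 8 striatal markers, the level was 157 TPM in replicate 2 and 96.4 TPM in replicate 1, and all 8 were called higher in replicate 2. Summed over 3 markers of olfactory bulb output neurons it was 37.3 TPM in replicate 2 and 7.45 TPM in replicate 1, with all 3 called higher. Of 3 choroid plexus markers 1 was called: Ttr had 32.4 TPM in replicate 2 and 1.03 TPM in replicate 1, while Kl and Folr1 were under 1 TPM in both libraries. Interneuron markers (5 genes) summed to 373 TPM in replicate 2 and 297 TPM in replicate 1, while the 5 excitatory neuron markers summed to 496 TPM in replicate 2 and 560 TPM in replicate 1. All 5 interneuron markers were called higher. Their log2 ratios were 0.61 for Gad1, 0.77 for Gad2, 0.65 for Slc32a1, 0.25 for Sst and 0.25 for Npy. Which region or cells these transcripts came from was not tested. Of the excitatory markers 1 was called higher and 2 lower. Red blood cell markers (3 genes, all called higher) summed to 304 TPM in replicate 2 and 148 TPM in replicate 1. Astrocyte markers (5 genes, all called higher) summed to 306 TPM in replicate 2 and 281 TPM in replicate 1. Endothelial markers (3 genes, 2 called lower) summed to 57.4 TPM in replicate 2 and 66.2 TPM in replicate 1. Of 5 markers of the oligodendrocyte lineage 1 was called higher and 2 lower, and none of 5 microglial markers was called. No marker of these lists was at 0 in both libraries. The part of these differences in the members' ratios was not tested.

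Among the Dlg scaffolds, Dlg4, which encodes PSD-95, led. Dlg4 (mm10, chr11:70016942-70047522, plus strand) had 249.68 TPM in replicate 2 and 248.14 TPM in replicate 1. Dlg2 (PSD-93, chr7:90476672-92449247, plus strand) had 157 TPM in replicate 2 and 166 TPM in replicate 1. The 2 libraries did not overlap between these genes, and Dlg4 and Dlg2 together made up most of the family's level. Dlg3 (SAP102) had 42.0 TPM in replicate 2 and 45.5 TPM in replicate 1. Dlg1 (SAP97) had 25.1 TPM in replicate 2 and 25.6 TPM in replicate 1. As shares of the family's summed TPM, Dlg4 took 51.9% ± 1.11, Dlg2 33.7% ± 0.76, Dlg3 9.11% ± 0.36 and Dlg1 5.28% ± 0.01 (SD, n = 2).

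Ratios between paralogs within a library do not depend on its scaling. A pair was called where the log2 ratio had the same sign in both libraries and its mean exceeded 2 SD. Of 25 pairs in 6 families 23 were called, and all 6 Dlg pairs were among them. The rule was not applied to pairs of other genes, so no background share stands beside this count. Log2 of Dlg1 over Dlg4 was −3.29 ± 0.03, of Dlg3 over Dlg4 −2.51 ± 0.09 and of Dlg2 over Dlg4 −0.62 ± 0.06 (SD, n = 2). Between the libraries, Dlg4 was higher in replicate 2 (log2 ratio 0.16, adjusted p = 7.4e-18, exact binomial test) and Dlg3 lower (log2 ratio −0.14, adjusted p = 0.00028), while Dlg2 and Dlg1 did not pass (log2 ratios −0.04 and −0.03).

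**Figure D3:**
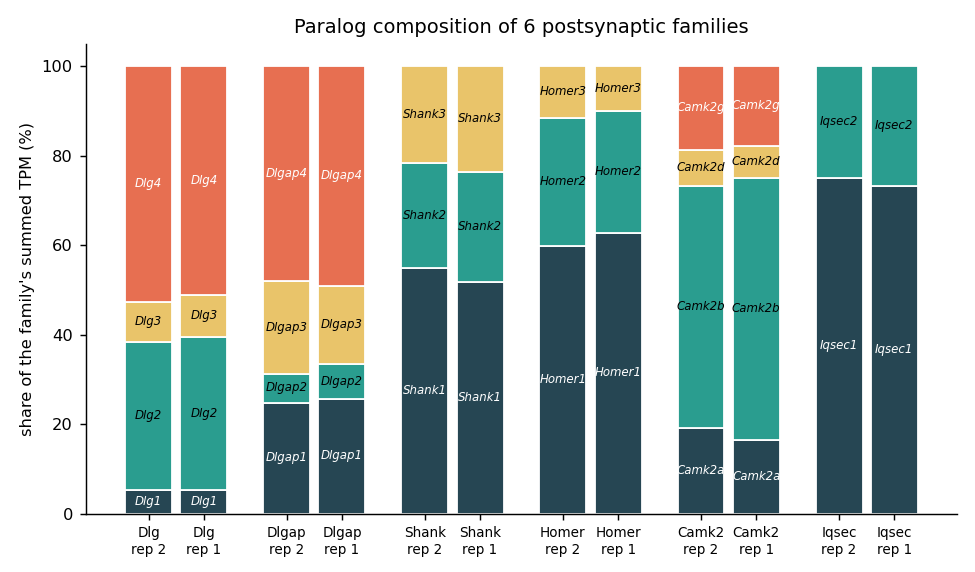
Share of each paralog in its family's summed TPM (y, %) in replicate 2 (left bar of each pair) and replicate 1 (right bar), for the 6 families. The leading gene of each family is the same in both libraries: Dlg4, Dlgap4, Shank1, Homer1, Camk2b and Iqsec1.

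The Dlg4 transcripts differ at the start of their coding sequence. Coding sequences that begin at the upstream start carry a pair of cysteine codons, at codons 3 and 5, which in PSD-95 are the sites of palmitoylation, the lipid attachment that holds it at the membrane. The first 60 coding bases of each are shown because the share of the 2 starts depended on the quantification (M21 transcripts, mm10, plus strand, coding start at base 70018920 of chromosome 11 for Dlg4-203 and at 70030625 for Dlg4-201). Capitals mark cysteine codons, of which the Dlg4-201 stretch has none.
Dlg4-203: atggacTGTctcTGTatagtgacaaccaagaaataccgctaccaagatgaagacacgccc
Dlg4-201: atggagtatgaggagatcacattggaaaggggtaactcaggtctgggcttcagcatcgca

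Complete coding sequences that begin at the upstream start held 61.6% of Dlg4 in replicate 2 and 60.01% in replicate 1 by the gene-table quantification. This quantification is the transcript table of the same format as the gene table. In it the downstream start held 22.6% in replicate 2 and 21.6% in replicate 1. By the other quantification, a second transcript table of each library, the upstream start held 32.0% in replicate 2 and 34.1% in replicate 1, and the downstream start 35.9% in replicate 2 and 36.2% in replicate 1. The mice thus agreed within each quantification, and the order of the starts turned between quantifications. All protein-coding transcripts together held 95.1% of Dlg4 on average by the gene-table quantification and 96.8% by the other. The part with an incomplete coding sequence was not assigned to a start, so the order by the other quantification is uncertain. Of the 31-base words of Dlg4 transcripts, 3.37% also occur in another gene, the highest share among the members.

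Dlg3 is on chromosome X (chrX:100767722-100818410, plus strand). Its 2 leading transcripts differ by blocks inside the coding sequence, and the leading one was not the same in the 2 mice. Dlg3-202, of 849 codons, held 50.5% in replicate 2 and 38.0% in replicate 1. Dlg3-201, of 817 codons, held 30.7% in replicate 2 and 54.1% in replicate 1. By the other quantification Dlg3-202 held 47.6% in replicate 2 and 35.7% in replicate 1, and Dlg3-201 25.5% in replicate 2 and 42.5% in replicate 1, so the change of leader was seen in each. The blocks that Dlg3-202 has and Dlg3-201 lacks, at chrX:100771307-100771360 (54 bases) and chrX:100811502-100811543 (42 bases), are in capitals between 15 flanking coding bases on each side.
Dlg3 54-base block: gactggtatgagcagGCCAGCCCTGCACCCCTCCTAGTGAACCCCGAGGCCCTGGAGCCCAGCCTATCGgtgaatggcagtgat
Dlg3 42-base block: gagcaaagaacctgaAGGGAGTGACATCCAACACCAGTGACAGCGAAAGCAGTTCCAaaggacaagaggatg

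Dlg2 and Dlg1 are long genes with several starts. The 852-codon transcript Dlg2-204 held 49.6% of Dlg2 in replicate 2 and 49.5% in replicate 1 (40.04% in replicate 2 and 39.1% in replicate 1 by the other quantification), and 38.6% ± 0.13 (SD, n = 2) lay in annotated non-coding processed transcripts. In Dlg1 the leader Dlg1-204 held only 23.9% in replicate 2 and 24.3% in replicate 1, and 14.7% lay in transcripts annotated for nonsense-mediated decay, the highest such share among the members.

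The Dlgap (SAPAP) proteins link the Dlg guanylate kinase domain to Shank. Dlgap4 (chr2:156613705-156764363, plus strand) had 144 TPM in replicate 2 and 158 TPM in replicate 1. Dlgap1 had 74.5 TPM in replicate 2 and 82.1 TPM in replicate 1. Dlgap3 had 62.4 TPM in replicate 2 and 55.7 TPM in replicate 1. Dlgap4 took 48.6% ± 0.82 of the family (SD, n = 2) and stood clear of the others in each library. Dlgap2 was the lowest, with 19.4 TPM in replicate 2 and 24.95 TPM in replicate 1. The pair of Dlgap1 and Dlgap3 was not called, since its log2 ratio of 0.41 ± 0.21 did not reach 2 SD, and the other 5 Dlgap pairs were. Dlgap3 was higher in replicate 2 (log2 ratio 0.26, adjusted p = 4.0e-14, exact binomial test) and Dlgap4 lower (−0.20, adjusted p = 6.7e-15).

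One coding sequence of 977 codons, shared by Dlgap3-201 and Dlgap3-203, took 93.3% of Dlgap3 in replicate 2 and 91.7% in replicate 1, and 85.8% in replicate 2 and 84.7% in replicate 1 by the other quantification. The rest was mostly the 966-codon Dlgap3-202, which lacks an 11-codon block at chr4:127235385-127235417 (plus strand). That block is the main coding difference of the gene and is in capitals below.
Dlgap3 33-base block: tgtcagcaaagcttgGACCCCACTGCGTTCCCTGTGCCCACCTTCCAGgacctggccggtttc

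In Dlgap1 the 982-codon coding sequence shared by Dlgap1-207 and Dlgap1-201 held 45.8% in replicate 2 and 39.6% in replicate 1, and retained-intron transcripts took 31.7% on average. In Dlgap2 the 1059-codon form held 51.2% in replicate 2 and 36.55% in replicate 1. Dlgap4 was split further, and its leading 989-codon form held 28.1% in replicate 2 and 25.9% in replicate 1.

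Shank proteins are the deep scaffolds that join Dlgap and Homer. Shank1 (chr7:44310253-44360572, plus strand) had 145 TPM in replicate 2 and 149 TPM in replicate 1. Shank2 had 62.3 TPM in replicate 2 and 71.3 TPM in replicate 1. Shank3 (chr15:89499623-89560261, plus strand) had 56.95 TPM in replicate 2 and 68.0 TPM in replicate 1. Shank1 thus led in each library, with 53.3% ± 2.19 of the family (SD, n = 2). Log2 of Shank1 over Shank2 was 1.14 ± 0.11 and of Shank1 over Shank3 1.24 ± 0.15. Shank2 over Shank3 was called at 0.10 ± 0.04, but at 0.01 by the other quantification, where it was not called. Shank3 and Shank2 were lower in replicate 2 (log2 ratios −0.18 and −0.10, adjusted p = 1.5e-08 and 3.3e-05, exact binomial test), and Shank1 did not pass (0.02).

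Shank2 was mostly 1 transcript: the 1472-codon Shank2-202 held 75.9% in replicate 2 and 76.1% in replicate 1, and the 1841-codon Shank2-203 2.41% in replicate 2 and 3.17% in replicate 1. In Shank3, where many starts are known, the 1805-codon Shank3-203 held 27.4% in replicate 2 and 25.5% in replicate 1, and the 1730-codon Shank3-201 21.2% in replicate 2 and 23.95% in replicate 1. The other quantification set these Shank3 forms further apart, with Shank3-203 at 38.6% in replicate 2 and 31.6% in replicate 1 and Shank3-201 at 5.74% in replicate 2 and 10.1% in replicate 1. Retained-intron transcripts took 15.03% and processed transcripts 13.3% of Shank3 on average. In Shank1 the 2167-codon Shank1-203 held 55.1% in replicate 2 and 55.6% in replicate 1, against 28.05% in replicate 2 and 28.4% in replicate 1 for the 2158-codon Shank1-201. Those 2 transcripts differ by 9 codons at chr7:44334033-44334059, shown in capitals because the longer form led in both libraries and both quantifications.
Shank1 27-base block: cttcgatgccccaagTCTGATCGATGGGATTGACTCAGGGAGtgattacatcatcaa

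Homer proteins bind Shank and group 1 metabotropic glutamate receptors, and the long forms cross-link through a coiled coil that the short, activity-induced form lacks. Homer1 (chr13:93299635-93405129, plus strand) had 53.1 TPM in replicate 2 and 62.6 TPM in replicate 1. Homer2 had 25.4 TPM in replicate 2 and 27.1 TPM in replicate 1. Homer3 had 10.3 TPM in replicate 2 and 10.02 TPM in replicate 1. The order Homer1, Homer2, Homer3 was the same in both mice, and all 3 pairs were called, with log2 of Homer1 over Homer3 at 2.49 ± 0.19 (SD, n = 2). Homer1 was lower in replicate 2 (log2 ratio −0.20, adjusted p = 7.5e-08, exact binomial test), while Homer2 and Homer3 did not pass. Homer3 overlaps Ddx49 on the opposite strand, which had 789 counts in replicate 2 and 665 in replicate 1 beside 289 in replicate 2 and 267 in replicate 1 for Homer3, and since the use of strand in counting is not given, the level of Homer3 is uncertain.

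Long Homer1 coding sequences, of 250 codons or more, held 60.2% of the gene in replicate 2 and 59.9% in replicate 1 by the gene-table quantification, and short ones 39.6% in replicate 2 and 40.1% in replicate 1. By the other quantification the long forms held 43.3% in replicate 2 and 45.9% in replicate 1, and the short ones 55.9% in replicate 2 and 53.8% in replicate 1. The mice were alike within each quantification, but which class was the larger depended on it. The short class was set by codon number alone and pools several transcripts, so its share need not be that of the activity-induced form. The short 180-codon Homer1-210 was at 0% in the gene-table quantification and at 18.3% in replicate 2 and 16.0% in replicate 1 in the other.

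The ends of the short Homer1-207 and Homer1-204 are shown because they set these forms apart from the long Homer1-203. The 36-base block shown with them does not separate the classes. The short Homer1-207 has it and the long Homer1-202 lacks it. The 366-codon Homer1-203 reads through a 36-base block at chr13:93386345-93386380 into the exons that follow, and Homer1-202, of 370 codons, has another start and skips that block. The 193-codon Homer1-207 continues past the block and ends 16 coding bases later, at chr13:93386381-93386396. The 186-codon Homer1-204 leaves the shared sequence at the base before chr13:93356080-93356110 and ends after 31 coding bases. Capitals mark the bases that the other form lacks, after 15 bases of shared sequence.
Homer1-203 36-base block: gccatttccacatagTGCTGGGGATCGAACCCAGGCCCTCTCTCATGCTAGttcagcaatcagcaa
Homer1-207 end: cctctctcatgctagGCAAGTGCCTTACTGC
Homer1-204 end: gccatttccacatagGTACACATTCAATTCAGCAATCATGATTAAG

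Homer1-203 held 37.4% in replicate 2 and 36.8% in replicate 1. Homer1-207 held 21.7% in replicate 2 and 19.6% in replicate 1. Homer1-204 held 9.41% in replicate 2 and 12.8% in replicate 1. The long Homer1-203 was thus the leading form in both mice, with the short Homer1-207 ahead of Homer1-204. In Homer2 the 343-codon Homer2-201 held 58.2% in replicate 2 and 38.8% in replicate 1, and the 290-codon Homer2-202 held 33.2% in replicate 2 and 34.1% in replicate 1. By the other quantification Homer2-201 held 43.7% in replicate 2 and 40.5% in replicate 1, so its large difference between the mice was seen in the gene-table quantification only. The 359-codon form of Homer3 held 51.5% in replicate 2 and 57.3% in replicate 1, but 24.3% in replicate 2 and 30.2% in replicate 1 by the other quantification.

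Of 5 activity genes, Fos and Egr1 were called lower in replicate 2, and the 5 summed to 27.2 TPM in replicate 2 and 35.8 TPM in replicate 1; whether this bears on Homer1 was not tested.

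**Figure D4:**
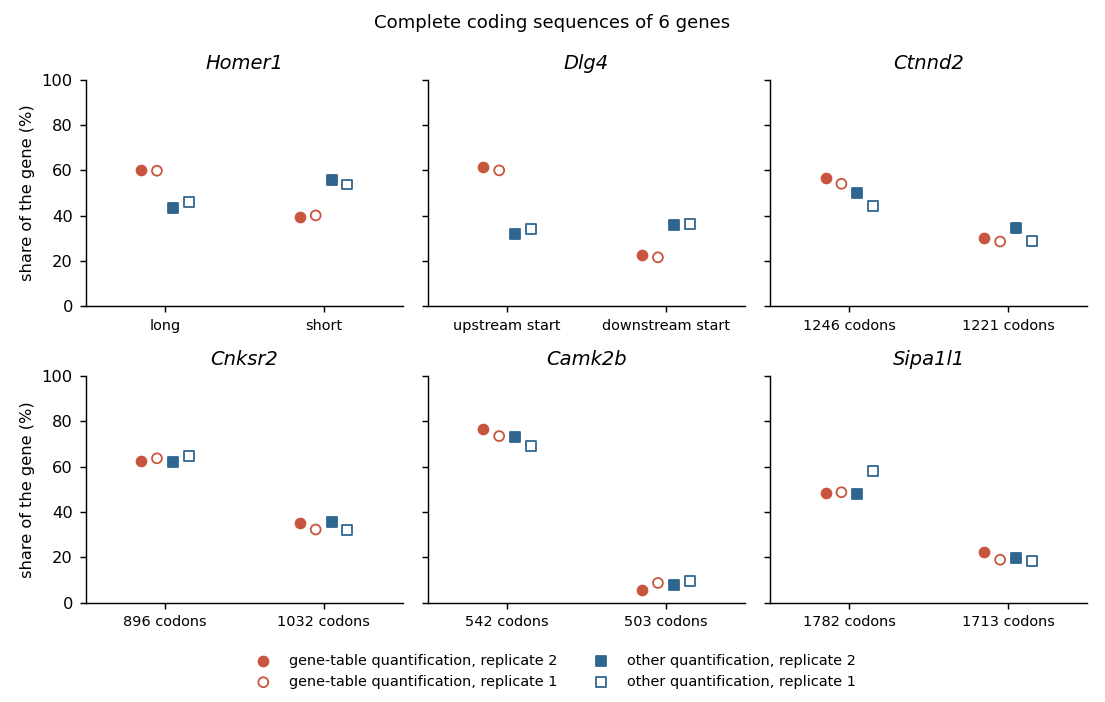
Share of the gene's summed transcript TPM (y, %) held by the 2 leading classes of complete coding sequence of 6 members, in replicate 2 (filled) and replicate 1 (open), by the gene-table quantification (circles) and the other one (squares). Homer1 and Dlg4 change order between quantifications, and in Ctnnd2, Cnksr2, Camk2b and Sipa1l1 the same class leads in all 4 columns.

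The remaining scaffolds ranged from Anks1b to Akap5. Anks1b, whose product binds PSD-95, had 102.1 TPM in replicate 2 and 107 TPM in replicate 1. Begain, which binds the guanylate kinase domain of PSD-95, had 64.6 TPM in replicate 2 and 64.85 TPM in replicate 1. By the other quantification Begain had 135 TPM in replicate 2 and 137 TPM in replicate 1. That is 2.11 times its gene-table level, the highest such ratio among the members. Processed transcripts held 1.38% of Begain on average by the gene-table quantification and 36.4% by the other. Cnksr2, a scaffold of Ras signalling, had 49.0 TPM in replicate 2 and 53.8 TPM in replicate 1. None of these 3 passed the test between libraries. Lrrc7 (densin-180), which binds CaM kinase II, had 37.15 TPM in replicate 2 and 47.0 TPM in replicate 1, and was lower in replicate 2 (log2 ratio −0.25, adjusted p = 1.1e-14, exact binomial test). Baiap2 (IRSp53), which binds Shank and Rac, had 36.1 TPM in each library. Akap5 (AKAP79/150), the anchor of protein kinase A and calcineurin, had 18.7 TPM in replicate 2 and 14.9 TPM in replicate 1, and was higher in replicate 2 (log2 ratio 0.33, adjusted p = 6.2e-10, exact binomial test).

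Anks1b spread over 33 annotated transcripts, and its leader in the gene-table quantification, the non-coding Anks1b-206, held 13.5% in replicate 2 and 19.2% in replicate 1. By the other quantification Anks1b-206 held 7.84% in replicate 2 and 7.47% in replicate 1, and the 1259-codon Anks1b-233 led with 21.5% in replicate 2 and 19.3% in replicate 1. Which Anks1b transcript led, and whether it was coding, thus depended on the quantification. Akap5 was the opposite, with the 752-codon coding sequence of Akap5-201 and Akap5-203 at 99.8% in replicate 2 and 98.6% in replicate 1. In Cnksr2 the 896-codon Cnksr2-202 held 62.3% in replicate 2 and 63.7% in replicate 1, and the 1032-codon Cnksr2-201 35.2% in replicate 2 and 32.3% in replicate 1. The shorter Cnksr2 form also led in the other quantification, with 62.0% in replicate 2 and 64.6% in replicate 1. The 522-codon Baiap2-202 held 47.1% in replicate 2 and 53.2% in replicate 1. In Lrrc7 the order turned: Lrrc7-205, of 1495 codons, held 50.2% in replicate 2 and 47.2% in replicate 1 by the gene-table quantification but 27.0% in replicate 2 and 26.5% in replicate 1 by the other, where the 1542-codon Lrrc7-201 held 37.3% in replicate 2 and 32.5% in replicate 1. The 2 differ by 47 codons at chr3:158156788-158156928 (minus strand), in capitals below.
Lrrc7 141-base block: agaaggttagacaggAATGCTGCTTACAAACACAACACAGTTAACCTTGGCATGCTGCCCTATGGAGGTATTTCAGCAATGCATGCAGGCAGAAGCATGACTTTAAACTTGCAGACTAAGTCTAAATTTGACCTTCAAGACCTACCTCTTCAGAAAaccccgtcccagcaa

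CaM kinase II is a holoenzyme of subunits from 4 genes, and in the adult forebrain the alpha subunit, from Camk2a, is known to predominate. At postnatal day 4 the beta subunit gene led. Camk2b (chr11:5969644-6066362, minus strand) had 307 TPM in replicate 2 and 303 TPM in replicate 1. Camk2g had 106 TPM in replicate 2 and 92.1 TPM in replicate 1. Camk2a had 109 TPM in replicate 2 and 85.1 TPM in replicate 1. Camk2b stood far above both, which overlapped each other across the 2 mice. Camk2d was the lowest, with 46.1 TPM in replicate 2 and 37.2 TPM in replicate 1. Camk2b took 56.3% ± 3.23 of the family, Camk2g 18.2% ± 0.62, Camk2a 17.8% ± 1.96 and Camk2d 7.66% ± 0.66 (SD, n = 2).

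Log2 of Camk2a over Camk2b was −1.66 ± 0.24, and of Camk2b over Camk2d 2.88 ± 0.21 (SD, n = 2). Camk2a over Camk2g was not called, at −0.04 ± 0.11, while the other quantification gave −0.24 and called it. All 4 genes were higher in replicate 2, by log2 ratios of 0.39 for Camk2a, 0.31 for Camk2d, 0.29 for Camk2g and 0.12 for Camk2b, each with an adjusted p of 7.2e-14 or less except Camk2d at 5.2e-13 (exact binomial test). The standard error from counting was 0.03 for Camk2a and 0.01 for Camk2b.

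Camk2b was mostly its 542-codon form, which held 76.7% in replicate 2 and 73.5% in replicate 1 (73.2% in replicate 2 and 69.0% in replicate 1 by the other quantification). The 503-codon Camk2b-201 held 5.67% in replicate 2 and 8.70% in replicate 1. The variable linker between the kinase and the association domains separates these forms: Camk2b-209 has blocks of 75 bases at chr11:5987057-5987131 and 45 bases at chr11:5981070-5981114 (minus strand) that Camk2b-201 lacks. They are shown because the form that holds them made up most of the most abundant kinase.
Camk2b 75-base block: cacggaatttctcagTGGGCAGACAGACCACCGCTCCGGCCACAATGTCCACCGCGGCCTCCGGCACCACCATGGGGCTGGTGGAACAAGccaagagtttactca
Camk2b 45-base block: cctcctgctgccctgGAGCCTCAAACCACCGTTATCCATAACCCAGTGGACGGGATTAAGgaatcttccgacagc

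In Camk2a the 478-codon Camk2a-203 led with 62.3% in replicate 2 and 64.4% in replicate 1, and in Camk2d the 492-codon Camk2d-202 led with 35.9% in replicate 2 and 38.2% in replicate 1. In Camk2g the 495-codon Camk2g-203 held 29.4% in replicate 2 and 35.4% in replicate 1, and its leader was not the same in all 4 columns. Camk2d had 28 annotated transcripts and 25.2% of its level in retained-intron ones.

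Nrgn encodes neurogranin, which binds calmodulin when calcium is low. It was the highest member, at 312 TPM in replicate 2 and 308 TPM in replicate 1 (chr9:37544492-37552904, minus strand), and its 78-codon transcript Nrgn-201 held 97.9% in replicate 2 and 98.8% in replicate 1. It was higher in replicate 2 by a log2 ratio of 0.08 (adjusted p = 0.0026, exact binomial test), and did not pass with scaling by total counts (adjusted p = 0.073). Itpka, the kinase of inositol 1,4,5-trisphosphate that also binds F-actin, was near the low end, at 9.72 TPM in replicate 2 and 7.55 TPM in replicate 1, with the largest difference of the members that passed (log2 ratio 0.44 ± 0.13 SE from counts, adjusted p = 0.0032). Of detected protein-coding genes 6.53% differed by more.

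Among regulators of small GTPases, Agap2, an Arf GTPase-activating protein, was the highest, with 192 TPM in each library. Kalrn (kalirin), a Rac exchange factor of spines, had 99.2 TPM in replicate 2 and 116 TPM in replicate 1. Iqsec1 and Iqsec2 activate Arf6: Iqsec1 had 82.6 TPM in replicate 2 and 68.6 TPM in replicate 1, and Iqsec2 27.6 TPM in replicate 2 and 25.1 TPM in replicate 1. Sipa1l1 (SPAR), which acts on Rap, had 40.4 TPM in replicate 2 and 38.25 TPM in replicate 1. All 5 passed the test between libraries, and Kalrn alone was lower in replicate 2 (log2 ratio −0.16, adjusted p = 2.3e-13, exact binomial test), against 0.08 for Agap2, 0.26 for Iqsec1, 0.19 for Iqsec2 and 0.21 for Sipa1l1. Log2 of Iqsec1 over Iqsec2 was 1.51 ± 0.09, and 1.14 by the other quantification.

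Kalrn had 21 annotated transcripts and no dominant coding form. Its leader, Kalrn-208, is a non-coding processed transcript with 22.1% in replicate 2 and 25.8% in replicate 1, and such transcripts together took 36.5% of the gene on average. Coding sequences that begin at base 34095880 of chromosome 16 (673 to 1295 codons) held 24.8% in replicate 2 and 21.9% in replicate 1. Those of 1654 and 1663 codons, which begin at base 34513980, held 6.90% in replicate 2 and 5.61% in replicate 1. The longest, the 2964-codon Kalrn-201, was at 0% in replicate 2 and 1.49% in replicate 1. In the other quantification it was at 2.18% in replicate 2 and 3.22% in replicate 1, so the longest form was low in all 4 columns.

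Agap2 was nearly all Agap2-201, of 1186 codons, with 93.1% in replicate 2 and 91.4% in replicate 1. In Sipa1l1 the transcript Sipa1l1-201 led with 23.2% in replicate 2 and 31.6% in replicate 1 but held 0.34% in replicate 2 and 0.48% in replicate 1 in the other quantification. The 3 transcripts that share its 1782-codon coding sequence held 48.5% in replicate 2 and 48.7% in replicate 1, and 48.1% in replicate 2 and 58.0% in replicate 1 in the other quantification. Iqsec1 had 2 near-equal forms with different starts, the 1051-codon Iqsec1-210 with 26.1% in replicate 2 and 28.16% in replicate 1 and the 1099-codon Iqsec1-201 with 24.03% in replicate 2 and 25.7% in replicate 1. Iqsec2, on chromosome X, had Iqsec2-203 at 49.0% in replicate 2 and 69.1% in replicate 1, while Iqsec2-207 held 23.2% in replicate 2 and 0.12% in replicate 1. The other quantification put Iqsec2-203 at 46.8% in replicate 2 and 40.8% in replicate 1 and Iqsec2-207 at 23.1% in replicate 2 and 20.1% in replicate 1, so those differences between the mice were seen in the gene-table quantification only.

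Of the genes of actin and adhesion, Ppp1r9b (spinophilin), which binds F-actin and protein phosphatase 1, had 138 TPM in replicate 2 and 136 TPM in replicate 1. Ctnnd2 (delta-catenin), which binds cadherins, had 142 TPM in replicate 2 and 145 TPM in replicate 1. On scaled counts both were higher in replicate 2 (log2 ratios 0.11 and 0.10, adjusted p = 1.8e-07 and 5.5e-06, exact binomial test). Of the members called higher in replicate 2, Ctnnd2 and Agap2 had a lower TPM there, with 191.71 TPM for Agap2 against 191.96 TPM in replicate 1. For most others called higher, the TPM was closer to equal between the libraries than the scaled counts were. Among these were Dlg4, Camk2b, Nrgn, Ppp1r9b, Sipa1l1, Dlgap3, Camk2g, Iqsec2 and Itpka. It was not closer for Iqsec1, and for Camk2d and Akap5 the 2 measures were nearly the same. TPM is set against all transcripts of a library and corrected for a fitted length. The scaled counts use a scaled library total and no length. The cause of the difference between the measures was not tested. Arc, the immediate early gene whose product acts in AMPA receptor uptake, was the lowest member, with 2.28 TPM in replicate 2 and 3.06 TPM in replicate 1 from 130 counts in replicate 2 and 154 in replicate 1. It did not pass (log2 ratio −0.35 ± 0.17 SE from counts, adjusted p = 0.13, exact binomial test). Whether the test could detect a difference of this size at this depth was not tested.

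The 2 leading forms of Ctnnd2 differ by a single block. Ctnnd2-201, of 1246 codons, held 56.5% in replicate 2 and 54.1% in replicate 1, and Ctnnd2-203, of 1221 codons, 30.1% in replicate 2 and 28.6% in replicate 1, with the same order in the other quantification (49.8% in replicate 2 and 44.2% in replicate 1 against 34.4% in replicate 2 and 28.9% in replicate 1). They differ by 25 codons at chr15:30920712-30920786 (plus strand), in capitals below.
Ctnnd2 75-base block: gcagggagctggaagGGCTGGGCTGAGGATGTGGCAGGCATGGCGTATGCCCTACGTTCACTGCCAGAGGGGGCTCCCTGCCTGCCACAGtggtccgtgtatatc

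Over all members, 356 transcripts were annotated, with a median of 9 a gene and a range of 1 to 33, beside a median of 5 for detected protein-coding genes. The leading transcript held under 60% of its gene in 22 members. In 25 of 33 members with more than 1 transcript the same one led in both libraries and both quantifications (75.8%), as in 65.9% of detected protein-coding genes with more than 1 transcript, and 31 of the 33 had the same leader in both libraries. Protein-coding transcripts held a median of 87.7% of a member, beside 87.4% over detected protein-coding genes, and retained-intron transcripts 3.73% beside 3.41%. Of the members, 22 had at least 2 complete coding sequences each at 5% or more in all 4 columns. The leading pair of these differed in 20 blocks inside the coding sequence, 17 of them a multiple of 3 bases, from 3 to 141 bases long.

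**Figure D5:**
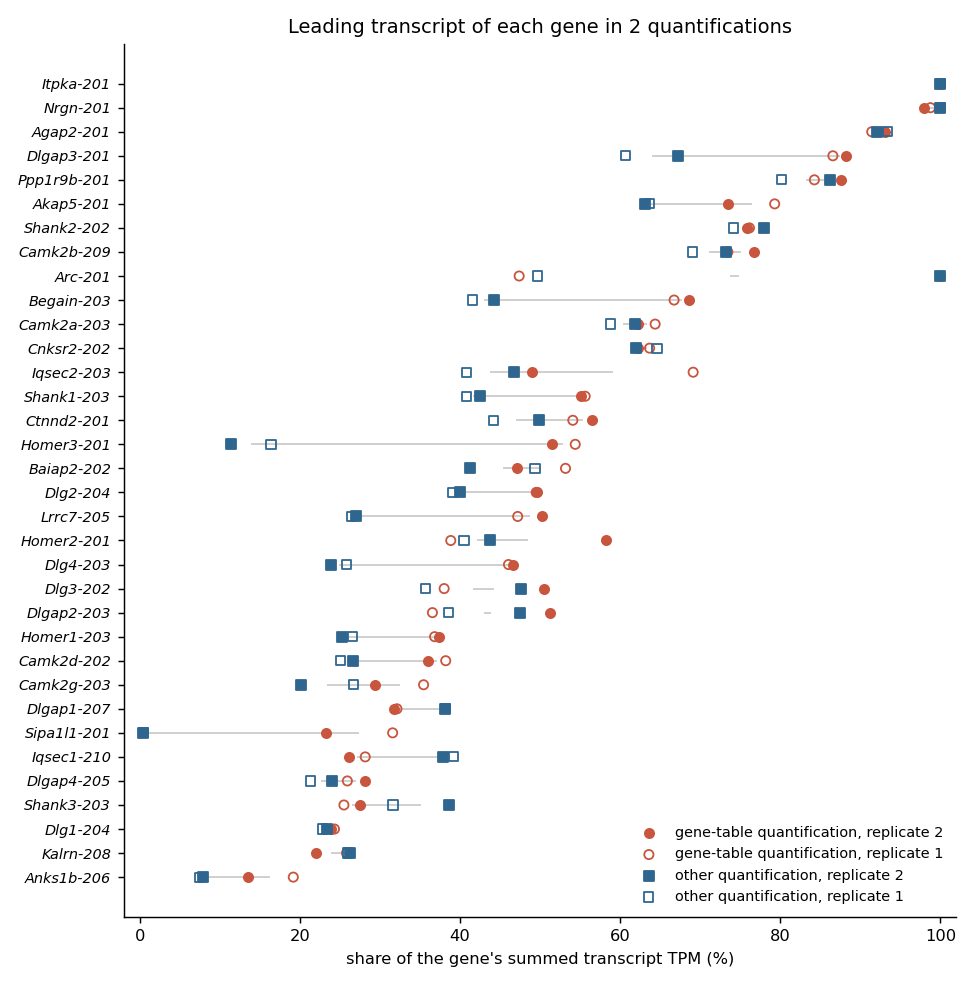
Share of the gene's summed transcript TPM (x, %) held by the leading transcript of each of the 34 members, by the gene-table quantification (circles) and the other one (squares), replicate 2 filled and replicate 1 open, joined at the means of the 2 quantifications. Nrgn-201 and Agap2-201 lie above 90% in all 4 columns, and Sipa1l1-201 and Homer3-201 lie far apart between quantifications.

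Of a companion list of 36 other genes, chosen for the postsynaptic density or as relatives of its genes, all 36 were detected, with a median of 52.2 TPM. Dbn1 (drebrin, which binds F-actin) had 302 TPM in replicate 2 and 311 TPM in replicate 1, and Abi2 (of the WAVE complex) 251 TPM in replicate 2 and 243 TPM in replicate 1. The lowest was Dlgap5, which belongs to the Dlgap family by name but is known as a protein of the mitotic spindle, with 2.37 TPM in replicate 2 and 2.01 TPM in replicate 1. Of the 36, 21 were called, 16 higher and 5 lower in replicate 2, with a median log2 ratio of 0.07. These counts, like those of the members, stand beside the 26.7% called of all tested genes. Of protein-coding genes with 1000 counts or more over both libraries, 44.2% were called, and the test calls more genes at higher counts.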

How the data were processed

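Gene tables hold expected counts and TPM, and 1 transcript table a library in the same format holds TPM and each transcript's percent of its gene, per the file headers; together they are called the gene-table quantification. Per the file headers, a second transcript table gives TPM and estimated counts in another format, called the other quantification. The deposited notes name mm10 and GENCODE M21. Quantifiers, versions and strand setting: not given in the sources used here. The tables give 1 value for each gene or transcript, not 1 for each parental allele. Expected counts were rounded before testing. Ratios used TMM factors of edgeR 4.0.16 (R 4.3.3) and a prior count of 0.5; the binomial test (scipy 1.17.1) was limited to genes whose summed count was at least 10, with an adjusted p threshold of 0.05. On simulated data for that comparison 20404 genes were tested, and 200 of those with 100 or more counts were changed 2-fold up or down. Of the 200, 190 were recovered, with 8 false calls. The simulated counts held counting error only, and the real libraries differed by more (chi-square 171478 on 20384 degrees of freedom). The false calls thus do not carry over to the real libraries, and changes under 2-fold were not simulated. Spike-in rows (0.351% of counts in replicate 2, 0.323% in replicate 1) and unnamed numeric rows (2 counts in replicate 2, 6 in replicate 1) stayed out. Pair ratios used TPM + 0.1. Transcripts were grouped by identical M21 coding sequence, with the stop codon left out of codon counts, and sequences come from the M21 transcripts. Alternatives were DESeq2 1.42.0 size factors, other scalings, filters, pseudocounts and the other quantification. The rule for named genes took all 34 members, described isoforms where the leading transcript held under 60% and for 7 further genes of known isoforms, and took the 3 highest and the lowest of the companion list, of which 1 is not reported here by name. The members and lists were chosen with earlier results of these data known. The labels number the libraries as biological replicates from separately numbered males and tissue samples, but both carry the same donor identifier, so the separation of the animals rests on those numbers. Errors from counts cover counting error only.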

Additional observations from a re-analysis of the deposited data

How the results depend on the processing

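The median member level moved to 93.4 TPM in the other quantification and to 126 TPM when TPM was taken over nuclear protein-coding genes, from 64.4 TPM. It ran from 62.3 to 66.4 TPM when either mouse was left out. The count of 22 members that differed between libraries stayed between 22 and 25 under 6 alternatives, and 21 or more of the 22 were shared in each. Scaling by total counts gave 24 members, 14 higher and 10 lower in replicate 2, and moved the median gene by −0.03 on the log2 scale. No called library difference of a member changed direction. The number of called paralog pairs was 23 in each alternative, but the pairs were not all the same in the other quantification. There Shank2 over Shank3 was no longer called and Camk2a over Camk2g was. All 34 genes stayed detected, except that 33 reached 5 TPM. In the other quantification 33 of 34 member levels and 25 of 34 leading transcript shares moved by more than 1 SD. So did 14 of 25 paralog log2 ratios, and the cause was not tested. The level there over the gene-table level had a median of 1.47 across members, from 1.09 to 2.11. Across detected protein-coding genes that median was 1.48, so the shift in level was not particular to the members. No paired analysis was possible because there is a single group of 2 mice.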
